A study of Homo sapiens with 24 samples.

Results

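The 10 genes described here encode enzymes that make serine, convert it to glycine and carry its one-carbon units on folate. They were taken by symbol from a table of read counts for 23368 genes and are PHGDH, PSAT1, PSPH, SHMT1, SHMT2, MTHFD1, MTHFD2, MTHFD1L, ALDH1L2 and MTHFD2L. All 10 were in the table and were among the 13947 genes that passed the filter on low counts, PHGDH only through its control libraries. The cells were AGS, an established human gastric adenocarcinoma line bought from a cell bank, of the genotype labelled WT, grown in Ham's F12 medium with fetal calf serum and harvested 24 h after treatment. Control cells had the treatment label none, and it is not stated whether they received vehicle. The single agents were 0.7 µM PI103 (which inhibits PI3 kinase and mTOR), 0.035 µM PD0325901 (which inhibits MEK) and 0.5 µM (5Z)-7-oxozeaenol, written oxozeaenol from here on (which inhibits TAK1). In the combinations of PI103 with oxozeaenol and of PI103 with PD0325901 each agent was at 50% of its single-agent concentration, that is 0.35 µM PI103 with 0.25 µM oxozeaenol or 0.0175 µM PD0325901. Each of the 6 groups had 4 biological replicates, numbered by batch, and the series title places them in a study of how inhibitors alter metabolism.

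Serine is made from a glycolytic intermediate in a short pathway. PHGDH oxidises 3-phosphoglycerate, PSAT1 transfers an amino group to the product, and PSPH removes the phosphate. Serine hydroxymethyltransferases, SHMT2 in mitochondria and SHMT1 in the cytosol, split serine into glycine and a one-carbon unit bound to tetrahydrofolate. In mitochondria MTHFD2 or MTHFD2L oxidises that unit, and MTHFD1L releases it as formate, while ALDH1L2 can oxidise it to carbon dioxide. MTHFD1 is the cytosolic enzyme that carries the counterparts of the MTHFD2 and MTHFD1L steps, and takes formate up again for the synthesis of purines and thymidylate. The transcription factor ATF4, which acts in the amino acid response and is under the control of mTOR, is known to drive several of these genes.

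The libraries held 38.1 to 84.2 M (1e6) counts in genes, with 15645 to 18263 genes detected per library. Of the epithelial markers, KRT8 was at 2804 CPM (counts per 1e6 of the scaled library) in control and KRT18 at 1794 CPM. EPCAM was at 646 CPM there, KRT19 at 451 CPM and CDH1 at 13.3 CPM. Of the stomach markers, MUC6 and GKN1 were at 0 in control, TFF2 was at 0.0492 CPM, CLDN18 at 0.515 CPM, TFF1 at 13.7 CPM and SOX2 at 10.8 CPM. Of 10 markers of other cell types, PTPRC, CD3E, PECAM1, COL1A2 and DCN were too low to test. The 10 summed to 18.3 to 23.4 CPM per control library, 41.8 to 43.3 CPM with PI103, 34.3 to 51.0 CPM with PD0325901 and 35.8 to 45.9 CPM with PI103 and PD0325901. With oxozeaenol the sum was 20.1 to 22.7 CPM, and with PI103 and oxozeaenol it was 19.9 to 21.7 CPM. Their part in the results was not tested. DUSP6, a readout of MEK, averaged 131.7 CPM (SD 13.4, n = 4) in control, against 3.60 CPM (SD 1.33, n = 4) in PD0325901 libraries. Certain libraries stood apart in the genes described here. Replicate 2 of PD0325901 was the lowest of its group for 7 of the 8 enzymes with at least 50 counts in each library, and replicate 2 of PI103 with oxozeaenol was the highest of its group for 6 of the 8. ASNS, an amino acid response gene that is no member of the pathway, moved with them. It was at 188 CPM in the first of these libraries against 349 to 487 CPM in the other 3 of that group, and at 189 CPM in the second against 47.2 to 53.7 CPM. Replicate 2 of PI103 was also the highest of its group for 6 of the 8 enzymes. Replicate 4 of PI103 and replicate 2 of PI103 with PD0325901 were each the lowest for 6. ASNS was highest in that replicate 2 of PI103 (34.1 CPM). In the libraries lowest for 6 it was at 25.8 and 36.6 CPM, above the lowest of their groups (24.9 and 30.7 CPM).

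In all 5 treatments most of the enzymes of serine synthesis and of the mitochondrial folate arm fell against control, while the cytosolic SHMT1 rose. Control libraries had a summed level of the 10 genes of 4149 ± 322 CPM (SD, n = 4), and PI103 libraries one of 764 ± 54.6 CPM, which is 18.4% of control. PD0325901 libraries had 1575 ± 364 CPM (38.0%) and oxozeaenol libraries 1928 ± 412 CPM (46.5%). The combination of PI103 with oxozeaenol had 999.8 ± 247 CPM (24.1%), and that with PD0325901 had 567 ± 63.2 CPM (13.7%). With PI103, 6 of the 10 genes were lower and 1 was higher at an adjusted p under 0.05, where 25.2% of all tested genes were lower and 26.2% higher. With PD0325901, 7 were lower and 1 higher, against 29.9% and 28.7% of all tested genes. With oxozeaenol, 6 were lower and 1 higher, against 26.1% and 25.7%. The combination with oxozeaenol had 6 lower and 1 higher, against 27.9% and 27.7%, and the one with PD0325901 had 8 lower and 1 higher, against 32.6% and 32.2%. These counts of lower genes include PHGDH, which entered the test only through control, where it is high. Without it 5, 6, 5, 5 and 7 of 9 genes were lower. The median log2 fold change of the 10 genes was -1.83, -1.20, -1.002, -1.76 and -2.52 in that order of treatments, and that of all tested genes lay between -0.02 and 0.02. The 5 comparisons share the 4 control libraries, so they are given side by side. In bulk RNA, fewer cells that express a gene and less of its RNA per cell cannot be told apart. In every alternative fit, PSAT1, PSPH, SHMT2, MTHFD2 and MTHFD1L kept their direction and call against control in all 5 treatments (375 of 375 fits). A threshold of an absolute log2 fold change of at least 1 was not among those fits. PSPH with oxozeaenol, at -0.98, did not reach that threshold. Unless another test is named, an adjusted p comes from quasi-likelihood F tests in edgeR and is corrected after Benjamini and Hochberg over all tested genes.

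**Figure D1:**
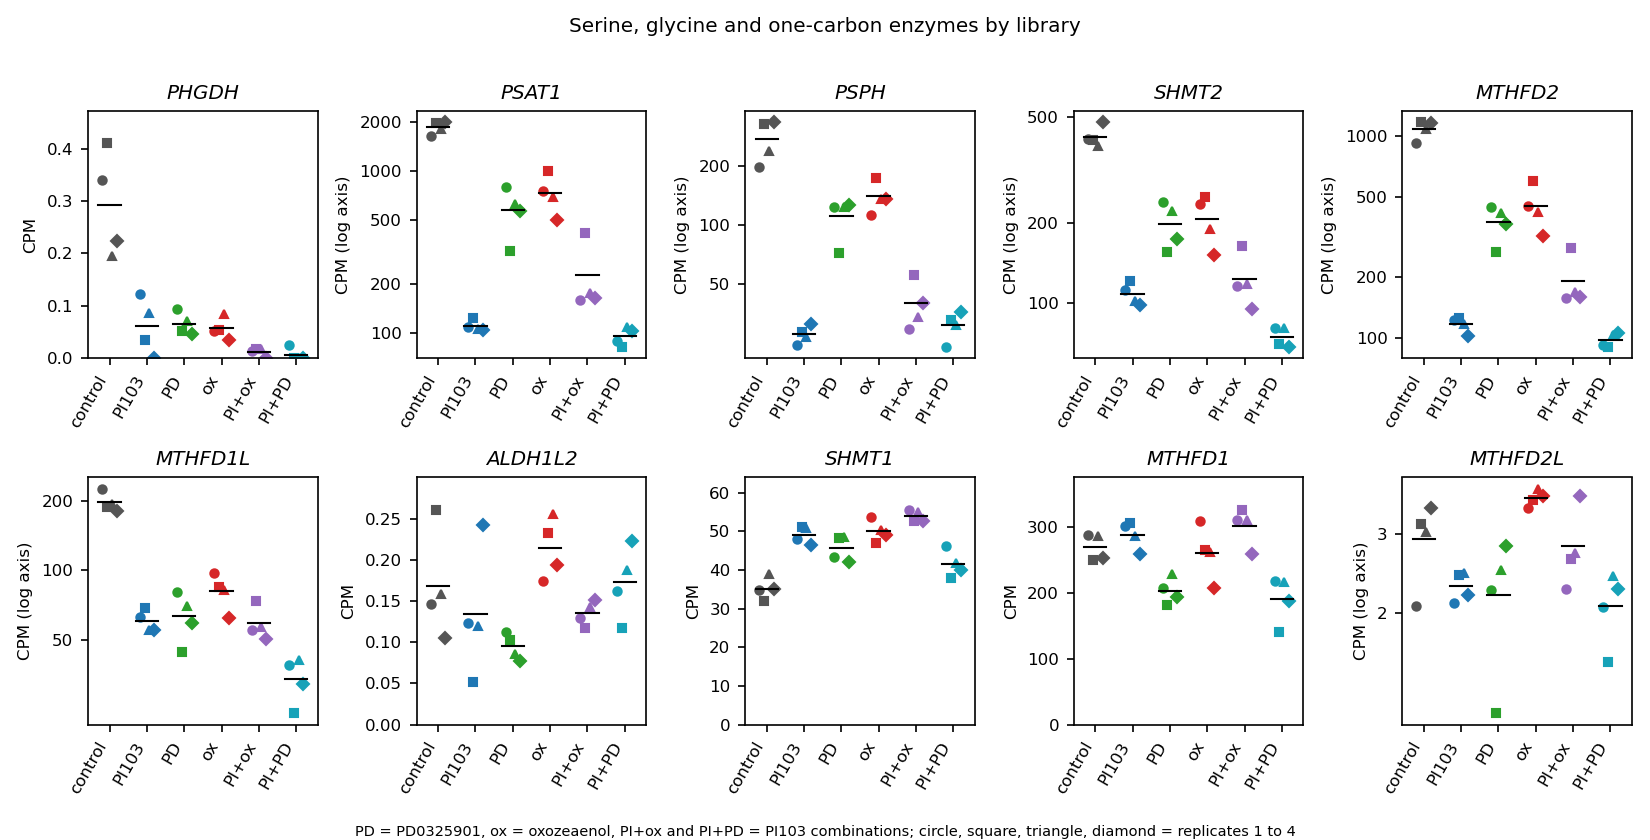
Level of each of the 10 enzymes in each library, in CPM (PHGDH, ALDH1L2, SHMT1 and MTHFD1 on a linear axis, the others on a log axis), by treatment, with the bar at the group mean and the symbol giving the replicate. The 4 control libraries of PSAT1, PSPH, SHMT2, MTHFD2 and MTHFD1L sit above every treated library, and those of SHMT1 lie lowest, overlapping the combination of PI103 and PD0325901.

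Stretches of promoter are shown for PSAT1 and MTHFD2, which had the highest control levels of the 10 genes and fell with every treatment, and for SHMT1, which rose with every treatment. Each ends before the annotated first exon. The sequences come from RefSeq (assembly GRCh38.p14), in which 7 of the 10 genes were matched, and PSPH, SHMT2 and ALDH1L2 were not. The PSAT1 stretch lies on the plus strand at chr9:78296925-78297124, that of MTHFD2 on the plus strand at chr2:74198365-74198561, and that of SHMT1 on the minus strand at chr17:18363564-18363763.
PSAT1: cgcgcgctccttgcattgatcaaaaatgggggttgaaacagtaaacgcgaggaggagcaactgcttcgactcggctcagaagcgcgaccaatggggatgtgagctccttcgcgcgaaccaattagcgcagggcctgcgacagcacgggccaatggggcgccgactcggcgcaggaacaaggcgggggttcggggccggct
MTHFD2: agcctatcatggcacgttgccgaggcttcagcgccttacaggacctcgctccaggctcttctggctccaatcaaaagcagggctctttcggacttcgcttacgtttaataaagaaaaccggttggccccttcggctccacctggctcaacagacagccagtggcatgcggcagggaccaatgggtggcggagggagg
SHMT1: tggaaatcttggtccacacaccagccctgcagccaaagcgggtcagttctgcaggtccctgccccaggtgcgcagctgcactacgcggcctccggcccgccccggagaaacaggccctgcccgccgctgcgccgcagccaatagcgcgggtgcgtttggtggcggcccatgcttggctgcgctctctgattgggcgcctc

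Promoter windows of 300 bases, from 250 before to 50 after each annotated start, were searched on both strands for a core bound by C/EBP and ATF factors, TGATGNAA, and for the E-box CACGTG, to which MYC with MAX is known to bind. The first was in 3.62% of 35116 such windows and the second in 7.26%. Neither was found in the windows of PSAT1, MTHFD2, SHMT1, PHGDH or MTHFD2L. MTHFD1L had both in 3 of its 4 windows and MTHFD1 had the E-box. Those 3 windows overlap and hold the same site of each motif. These matches are shown with the motif in capitals. They lie on the plus strand at chr6:150866346-150866375 (MTHFD1L, C/EBP and ATF core), chr6:150866320-150866349 (MTHFD1L, E-box) and chr14:64388326-64388355 (MTHFD1).
MTHFD1L C/EBP and ATF core: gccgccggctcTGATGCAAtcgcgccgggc
MTHFD1L E-box: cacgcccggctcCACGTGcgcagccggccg
MTHFD1 E-box: ccagtccctaagCACGTGggttgggttgtc

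PSAT1, the aminotransferase of serine synthesis, had the largest falls of the enzymes with more than a few counts. The gene is annotated at chr9:78297143-78330093 on the plus strand of GRCh38 (GENCODE 29). Its level in control replicates 1 to 4 was 1643, 1976, 1830 and 1998 CPM. With PI103 it was 109, 124, 107 and 104 CPM. Every PI103 library was thus far below every control library, and the 4 lay close together. The fall was 16.8-fold (log2 fold change -4.07, SE 0.292, adjusted p = 8.95e-11). With PD0325901 the level was 802, 323, 623 and 566 CPM, and with oxozeaenol it was 759, 996, 697 and 499 CPM. These groups spread more widely and overlapped each other, but not control. The log2 fold change was -1.69 (SE 0.265, adjusted p = 8.34e-06) with PD0325901 and -1.34 (SE 0.262, adjusted p = 0.000177) with oxozeaenol. In PI103 with oxozeaenol the level was 161, 412, 177 and 164 CPM, replicate 2 being far above the other 3. With PI103 and PD0325901 it was 89.1, 82.1, 109.6 and 103 CPM, overlapping PI103 alone. The log2 fold changes against control were -3.03 (adjusted p = 3.62e-09, or -3.48 without replicate 2 of the combination) and -4.28 (adjusted p = 1.60e-11). Without replicate 2 of PD0325901 the change with that agent was -1.46 (adjusted p = 0.000132).

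The levels of PSAT1 thus ran from control down through oxozeaenol, PD0325901, PI103 with oxozeaenol and PI103 to PI103 with PD0325901. In that order oxozeaenol and PD0325901 did not differ beyond their spread (log2 difference 0.35, adjusted p = 0.319), nor did PI103 and its combination with PD0325901 (difference of that combination from PI103 -0.21, adjusted p = 0.561). PI103 with oxozeaenol lay below PD0325901 (-1.34, adjusted p = 0.000332, a pair compared only to order the levels, in which 19.2% of all tested genes were lower) and above PI103 (1.04, adjusted p = 0.00627). That last difference was 0.59 (adjusted p = 0.0539) without replicate 2 of the combination, and had an adjusted p of 0.0612 when only the groups compared were fitted.

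PSPH, the phosphatase that completes serine synthesis, fell in the same treatments. It is annotated at chr7:56011051-56051604 on the minus strand. The control libraries held 199, 330, 238 and 335 CPM, and those with PI103 24.2, 28.3, 26.6 and 30.9 CPM. There was no overlap, and the fall was 10.0-fold (log2 fold change -3.32, SE 0.219, adjusted p = 2.16e-11). With PD0325901 PSPH was at 123, 71.5, 124 and 127 CPM, where replicate 2 was well under the other 3. With oxozeaenol it was at 113, 175, 136 and 136 CPM, still below every control library. The log2 fold changes were -1.31 (adjusted p = 6.92e-06, or -1.12 without replicate 2 of PD0325901) and -0.98 (adjusted p = 0.000285). The libraries of PI103 with oxozeaenol held 29.2, 55.7, 33.6 and 39.9 CPM, and those of PI103 with PD0325901 23.7, 32.5, 30.7 and 35.8 CPM. The second combination overlapped PI103, and in the first replicate 1 lay within the PI103 range and the other 3 above it, replicate 2 by the most. Their log2 fold changes against control were -2.80 (adjusted p = 1.76e-10) and -3.17 (adjusted p = 1.34e-11). PSPH in PI103 with oxozeaenol was not called against PI103 (0.52, adjusted p = 0.0748), but was with the batch number as a block (0.51, adjusted p = 0.0392), in DESeq2 (0.53, adjusted p = 0.0362) and without replicate 1 of the combination (0.66, adjusted p = 0.0402).

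PHGDH, the dehydrogenase that opens the pathway, was nearly absent from these cells. It is annotated at chr1:119648411-119744226 on the plus strand. Its read counts in control replicates 1 to 4 were 21, 22, 16 and 17, at a mean of 0.292 CPM, where PSAT1 had 101446 counts in replicate 1. With PI103 the counts were 8, 2, 5 and 0, with PD0325901 5, 3, 5 and 3, and with oxozeaenol 3, 4, 3 and 2. They were 1, 1, 1 and 0 in PI103 with oxozeaenol, and 2, 0, 0 and 0 in PI103 with PD0325901. Every treated library was below every control library. The control sum of 76 counts had an exact 95% Poisson interval of 59.9 to 95.1, and the PI103 sum of 15 one of 8.40 to 24.7, both covering counting error only. Since the filter kept PHGDH only for its control libraries, the fit with no filter on low counts is quoted. There the adjusted p against control was 0.00103 to 0.00164 for the single agents and 3.77e-06 and 8.70e-07 for the combinations. No fold change is given at so few counts.

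SHMT2, the mitochondrial hydroxymethyltransferase, is annotated at chr12:57229327-57234935 on the plus strand. Control libraries held 411, 408, 389 and 476 CPM and PI103 libraries 112, 121, 102 and 98.8 CPM. The groups were well apart, and the fall was 3.88-fold (log2 fold change -1.96, SE 0.159, adjusted p = 3.55e-10). With PD0325901 SHMT2 was at 239, 155, 221 and 174 CPM, and with oxozeaenol at 236, 249.8, 189 and 152 CPM. Those single agents overlapped each other and lay between control and PI103, at log2 fold changes of -1.09 (adjusted p = 1.60e-06) and -1.03 (adjusted p = 5.80e-06). In PI103 with oxozeaenol it was at 116, 164, 118 and 94.98 CPM, overlapping PI103. With PI103 and PD0325901 it was at 80.8, 70.003, 80.3 and 68.4 CPM, below every other library of the series. The log2 fold changes of the combinations were -1.77 (adjusted p = 1.26e-09) and -2.49 (adjusted p = 3.05e-12). PI103 with PD0325901 was lower than PI103 alone by a further log2 difference of -0.53 (adjusted p = 0.00796).

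MTHFD2, the mitochondrial dehydrogenase and cyclohydrolase that is known to be high in tumours and low in most adult tissues, followed PSAT1 closely. It is annotated at chr2:74198562-74217565 on the plus strand. Its control libraries held 923, 1168, 1087 and 1158 CPM, and its PI103 libraries 123, 125, 118 and 102 CPM. The fall was 9.28-fold with no overlap (log2 fold change -3.21, SE 0.194, adjusted p = 5.10e-12). With PD0325901 the level was 445, 266, 414 and 368 CPM, and with oxozeaenol it was 448, 602, 421 and 321 CPM. These gave log2 fold changes of -1.54 (adjusted p = 1.30e-07) and -1.27 (adjusted p = 2.80e-06), and did not differ from each other (0.26, adjusted p = 0.275). PI103 with oxozeaenol gave 158, 278, 168 and 158 CPM, with replicate 2 again far above the other 3. With PI103 and PD0325901 it was 92.0, 90.0, 103.7 and 105 CPM, the upper 2 reaching the lowest PI103 library. The combinations were at log2 fold changes of -2.51 (adjusted p = 1.05e-10, or -2.75 without replicate 2) and -3.47 (adjusted p = 4.06e-13). PI103 with oxozeaenol was above PI103 by 0.71 (adjusted p = 0.00681, or 0.47 at an adjusted p of 0.0455 without replicate 2). PI103 with PD0325901 was at -0.26 from PI103, which was not called (adjusted p = 0.272) but was when only those groups were fitted (-0.25, adjusted p = 0.0391).

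MTHFD1L, the mitochondrial synthetase that releases formate, had PI103 and PD0325901 at nearly the same level. It is annotated at chr6:150865549-151101887 on the plus strand. Control libraries held 226, 188, 194 and 182 CPM. PI103 libraries held 62.6, 68.8, 54.9 and 54.9 CPM, PD0325901 libraries 80.8, 44.1, 69.8 and 59.4 CPM, and oxozeaenol libraries 97.7, 84.3, 82.0 and 61.8 CPM. All were under the lowest control library, and PD0325901 spread over and around PI103. The log2 fold changes were -1.71 (SE 0.174, adjusted p = 1.88e-08) with PI103, -1.64 (adjusted p = 2.34e-08) with PD0325901 and -1.28 (adjusted p = 1.36e-06) with oxozeaenol. PD0325901 and PI103 differed by 0.07 (SE 0.170, adjusted p = 0.751) for MTHFD1L, where they differed by 2.38 for PSAT1 and 2.02 for PSPH. In PI103 with oxozeaenol MTHFD1L was at 55.1, 73.7, 57.0 and 50.4 CPM, and with PI103 and PD0325901 at 38.7, 23.9, 40.9 and 31.9 CPM. The second combination was below every library of the other groups, at a log2 fold change of -2.54 (adjusted p = 1.74e-11), and the first was at -1.74 (adjusted p = 1.13e-08). PI103 with oxozeaenol was not called against oxozeaenol (-0.46, adjusted p = 0.0676), but was with the batch number as a block (-0.45, adjusted p = 0.0375), in DESeq2 (adjusted p = 0.0391) and in the fit of those groups only (adjusted p = 0.0465). It was also called without replicate 2 of the combination (-0.59, adjusted p = 0.0297) and without replicate 4 of oxozeaenol (-0.58, adjusted p = 0.0275).

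The other mitochondrial members were low. MTHFD2L, the paralogue of MTHFD2, is annotated at chr4:74114174-74303099 on the plus strand, and was at 2.92 ± 0.588 CPM (SD, n = 4) in control. Its means in the treated groups were between 2.08 ± 0.372 CPM with PI103 and PD0325901 and 3.60 ± 0.145 CPM with oxozeaenol (SD, n = 4 each), and every treated group but oxozeaenol overlapped control. The oxozeaenol libraries, at 3.43 CPM or more, reached the highest control library or lay above it, without a call (0.30, adjusted p = 0.215). It was called lower with PI103 and PD0325901 (log2 fold change -0.49, adjusted p = 0.0353). That call was lost with library size alone (-0.36, adjusted p = 0.107) or upper-quartile factors (-0.35, adjusted p = 0.130). It was lost as well without replicate 1 or 2 of the combination (adjusted p = 0.0599 and 0.122) or control replicate 2, 3 or 4 (adjusted p = 0.0733, 0.0655 and 0.108). MTHFD2L with PD0325901 was at -0.41 (adjusted p = 0.0830), called with the batch number as a block (-0.42, adjusted p = 0.0436), without control replicate 1 (adjusted p = 0.0273) and without PD0325901 replicate 4 (adjusted p = 0.0301). ALDH1L2, the mitochondrial formyltetrahydrofolate dehydrogenase at chr12:105019784-105084577 on the minus strand, had 3 to 17 counts per library and group means of 0.0948 to 0.214 CPM. It was not called in any treatment against control, except with PD0325901 when control replicate 4 was left out (-0.97, adjusted p = 0.0494).

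SHMT1, the cytosolic hydroxymethyltransferase, rose with every treatment. It is annotated at chr17:18327860-18363563 on the minus strand. Its control libraries held 34.8, 31.9, 39.0 and 35.0 CPM, and those with PI103 48.0, 51.0, 50.9 and 46.3 CPM. All PI103 libraries were above all control libraries (log2 fold change 0.48, SE 0.0770, adjusted p = 1.09e-05). With PD0325901 SHMT1 was at 43.4, 48.1, 48.6 and 42.1 CPM, and with oxozeaenol at 53.8, 46.9, 50.4 and 49.1 CPM. Neither overlapped control, and the log2 fold changes were 0.37 (adjusted p = 0.000176) and 0.51 (adjusted p = 5.04e-06). PI103 with oxozeaenol brought it to 55.6, 52.7, 55.0 and 52.8 CPM, the highest group mean, at a log2 fold change of 0.62 (adjusted p = 2.03e-07). With PI103 and PD0325901 it was at 46.2, 37.8, 41.9 and 39.9 CPM, so that its lowest library was under the highest control library. That rise was 0.24 (adjusted p = 0.00878) and was not called without replicate 1 of the combination (0.18, adjusted p = 0.0538). All of these rises were under 1.54-fold, so that no member was higher at an absolute log2 fold change of at least 1.

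MTHFD1, the cytosolic enzyme of several folate steps, is annotated at chr14:64388031-64463457 on the plus strand and fell only where PD0325901 was given, as far as these tests call it. Control libraries held 289, 250.1, 287 and 253 CPM, PI103 libraries 302, 306, 287 and 259 CPM, and oxozeaenol libraries 309, 264, 262 and 208 CPM. Those groups overlapped, with log2 fold changes of 0.10 (adjusted p = 0.528) and -0.05 (adjusted p = 0.759). With PD0325901 MTHFD1 was at 208, 181, 229 and 194 CPM, and with PI103 and PD0325901 at 217, 139.9, 216 and 188 CPM. Each of these libraries was under the lowest control library, at log2 fold changes of -0.41 (SE 0.122, adjusted p = 0.00548) and -0.50 (SE 0.123, adjusted p = 0.000847). In PI103 with oxozeaenol it was at 311, 326, 311 and 259 CPM, and was not called (0.16, adjusted p = 0.266). The difference between the agents was tested: MTHFD1 was lower with PD0325901 than with PI103 (-0.51, adjusted p = 0.00140), and in the combination with PD0325901 than in that with oxozeaenol (-0.67, adjusted p = 0.000234). It was lower with PD0325901 than with oxozeaenol too (oxozeaenol higher by 0.36, adjusted p = 0.0280), but that call was lost in 8 of the fits run, among them the one without replicate 2 of PD0325901 (0.29, adjusted p = 0.136).

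**Figure D2:**
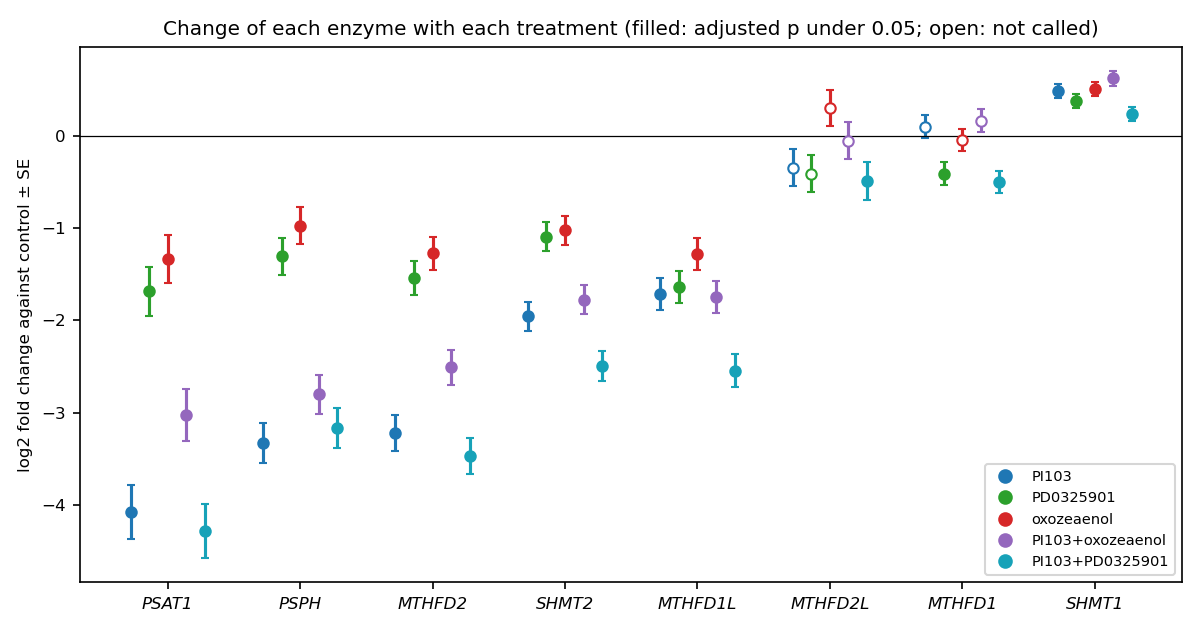
Fitted log2 fold change against control with its SE for the 8 enzymes with at least 50 counts in each library, in each of the 5 treatments; filled points have an adjusted p under 0.05. PSAT1 spans the widest range, from -1.34 with oxozeaenol to -4.28 with PI103 and PD0325901, and SHMT1 is above 0 in all 5 treatments.

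Per kilobase of annotated exon, the control level of PSAT1 was 851 ± 74.9 CPM per kb (SD, n = 4), the highest of the 10. MTHFD2 followed at 223 CPM per kb, PSPH at 99.7, SHMT2 at 87.0, MTHFD1L at 39.4 and MTHFD1 at 28.8 CPM per kb. SHMT1 was at 4.83, MTHFD2L at 0.297, PHGDH at 0.0317 and ALDH1L2 at 0.0197 CPM per kb. The enzymes that open the pathway and complete it thus differed greatly in control level, PHGDH against PSPH. Reads that map to more than 1 place were tallied apart from the genes, and GENCODE names 4 pseudogenes of PSAT1, 7 of MTHFD2 and 1 each of PSPH, SHMT1 and MTHFD1, so their levels may be low. Exons overlap a gene on the other strand over 33.2% of the exon length of MTHFD2, 11% of MTHFD1 and 9.51% of SHMT2, and no source used here says if reads were counted by strand.

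The ratio of a mitochondrial to a cytosolic enzyme within a library does not depend on how libraries are scaled. SHMT2 counts were 12.0 times SHMT1 counts in control (geometric mean, n = 4). This fell to 2.21 with PI103, 4.27 with PD0325901 and 4.06 with oxozeaenol, and to 2.24 and 1.81 when PI103 was combined with oxozeaenol or PD0325901. The log2 differences from control were -2.44, -1.49, -1.56, -2.42 and -2.73. MTHFD1L counts were 0.732 times MTHFD1 counts in control and 0.209, 0.307, 0.311, 0.194 and 0.177 times in the same order of treatments. The log2 differences were -1.81, -1.25, -1.23, -1.91 and -2.05. Of the paired mitochondrial dehydrogenases, MTHFD2 counts were 375 times MTHFD2L counts in control and 50.7, 175, 121, 66.5 and 47.4 times with the treatments, at log2 differences of -2.89, -1.10, -1.63, -2.50 and -2.98. In all 15 comparisons the treated libraries did not overlap control, at a 2-sided exact permutation p of 0.0286, which is the smallest that 4 against 4 libraries can give, and 0.0286 after adjustment over the 15. This test leaves the batch pairing aside. Within batches the ratio was lower than in control in 4 of 4 batches in each comparison, and a test over 4 pairs cannot give a p under 0.125. SHMT2, MTHFD1L and MTHFD2 on their own did not overlap control in any treatment, so the ratios in large part restate those falls. Against control, 51.4% (PI103) to 64.8% (PI103 with PD0325901) of all tested genes were called in either direction. The share of other gene pairs whose ratio would lie apart from control was not computed.

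**Figure D3:**
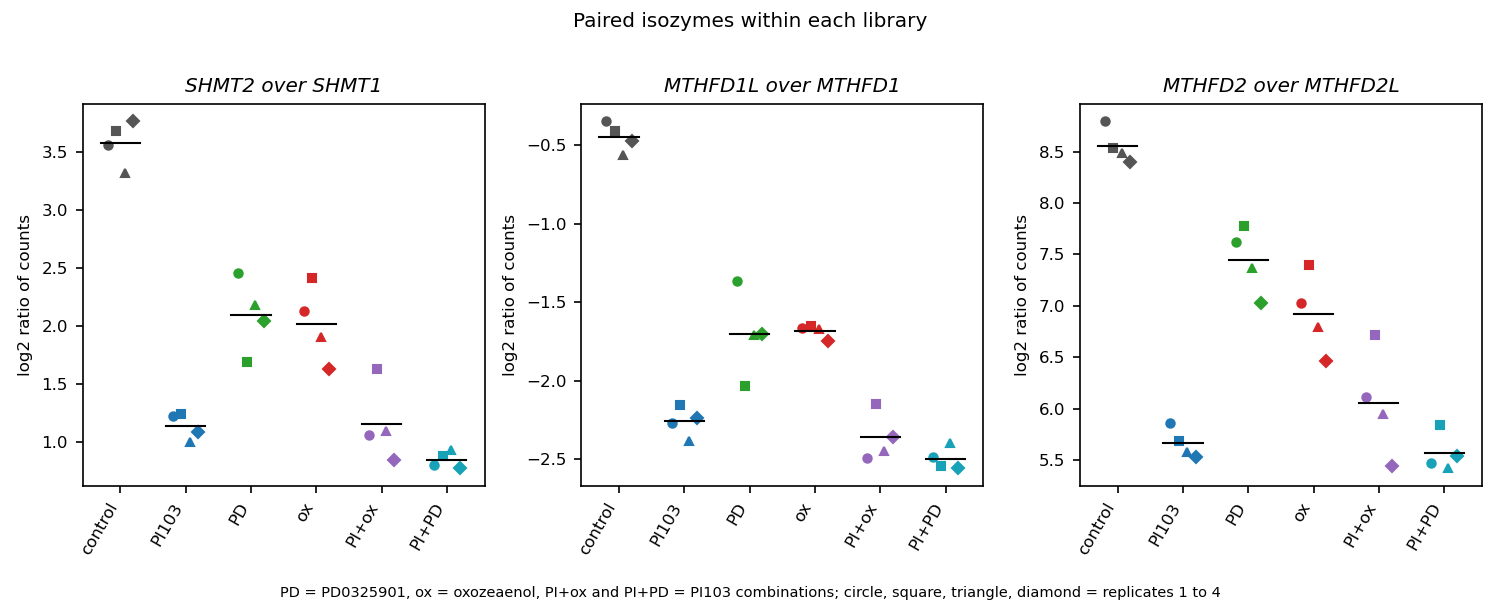
Log2 ratio of the counts of paired enzymes within each library (SHMT2 over SHMT1, MTHFD1L over MTHFD1, MTHFD2 over MTHFD2L), by treatment, with the bar at the group mean and the symbol giving the replicate. In each panel the 4 control libraries lie above all treated libraries, and PI103 with PD0325901 has the lowest mean.

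Between the single agents, PI103 gave the lowest group means of PSAT1, PSPH, SHMT2, MTHFD2 and MTHFD1L, while PHGDH had 0 to 8 counts per library with any of the 3. Oxozeaenol exceeded PI103 for 6 of the 10 genes (22.5% of all tested genes were higher) and was lower for none (20.6%). The differences were 2.73 for PSAT1 (adjusted p = 4.03e-08), 2.35 for PSPH, 1.94 for MTHFD2, 0.93 for SHMT2 and 0.65 for MTHFD2L (adjusted p = 0.0116). For MTHFD1L it was 0.43 (adjusted p = 0.0424), a call that was lost in 8 of the fits run, with adjusted p-values of 0.0617 to 0.132, among them those without replicate 1, 3 or 4 of PI103 or replicate 1, 2 or 3 of oxozeaenol. PD0325901 exceeded PI103 for 4 genes (22.9% of all tested genes higher), which were PSAT1 (2.38, adjusted p = 1.84e-07), PSPH (2.02), MTHFD2 (1.68) and SHMT2 (0.86), and was lower for MTHFD1 alone (21.7% lower). Against PD0325901, oxozeaenol was higher for MTHFD1, MTHFD2L and ALDH1L2 (13.4% of all tested genes higher) and lower for none (15.1%). These were 0.36 (adjusted p = 0.0280), 0.71 (adjusted p = 0.0106) and 1.16 (adjusted p = 0.0284). Without replicate 2 of PD0325901 none of the 3 was called (0.29 at an adjusted p of 0.136, 0.49 at 0.0595 and 1.18 at 0.0668). MTHFD1 was also lost without replicate 1 or 4 of PD0325901 or replicate 1, 2 or 3 of oxozeaenol (adjusted p = 0.0510 to 0.159), with library size alone (0.0574) and in the fit of those groups only (0.0695). ALDH1L2 was lost in DESeq2 (0.0573), with no filter (0.0679) and without replicate 3 or 4 of PD0325901 or 2 or 3 of oxozeaenol (adjusted p = 0.0590 to 0.0649). MTHFD1L was called higher when oxozeaenol replicate 4 was left out (0.47, adjusted p = 0.0472), and otherwise was not (0.36, adjusted p = 0.115).

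The combinations hold each agent at a lower concentration than the single treatments, so these comparisons are across concentrations. Against PI103 alone, PI103 with oxozeaenol was higher for PSAT1 and MTHFD2 (9.39% of all tested genes were higher) and lower for none (8.92%), except PHGDH when PI103 replicate 4, the library with 0 counts of it, was left out (adjusted p = 0.0197). Against oxozeaenol alone it was lower for 4 genes (7.28%) and higher for none (7.59%). The 4 were PSPH (-1.82, adjusted p = 3.73e-06), PSAT1 (-1.69, adjusted p = 0.000156), MTHFD2 (-1.23, adjusted p = 7.49e-05) and SHMT2 (-0.75, adjusted p = 0.00201). PI103 with PD0325901 was lower than PI103 alone for 5 genes (19.9%) and higher for none (18.8%). The 5 were MTHFD1L (-0.83, adjusted p = 0.000522), MTHFD1 (-0.60, adjusted p = 0.000405), SHMT2 (-0.53, adjusted p = 0.00796), SHMT1 (-0.24, adjusted p = 0.0146) and PHGDH (adjusted p = 0.0194). PHGDH, which entered the test only through control, had an adjusted p of 0.0226 with no filter on low counts. Without PHGDH the count is 4 of 9. The calls of SHMT1 and PHGDH were lost without replicate 2 of the combination (adjusted p = 0.0691 and 0.0596). PHGDH was also lost without replicate 3 of it (0.0541) or PI103 replicate 1 (0.110), and SHMT1 with library size alone (0.0825) or upper-quartile factors (0.0585). Against PD0325901 alone, PI103 with PD0325901 was lower for 6 genes (10% of all tested genes) and higher for none (8.06%). The 6 were PSAT1 (-2.59, adjusted p = 1.56e-06), MTHFD2 (-1.93), PSPH (-1.86), SHMT2 (-1.40), MTHFD1L (-0.91, adjusted p = 0.000870) and PHGDH (adjusted p = 0.0308). With no filter PHGDH had an adjusted p of 0.0360, and without PHGDH the count is 5 of 9. PHGDH was lost in 5 of these fits, without replicate 1 or 3 of PD0325901 or replicate 2, 3 or 4 of the combination (adjusted p = 0.0636 to 0.0811).

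A combination was also set against the mean of its single agents on the log2 scale, which is the level that log2 effects linear in concentration would give at 50% of each agent. PI103 with PD0325901 was below that mean for 8 of the 10 genes, where 11.1% of all tested genes were, and above it for none (10.8%). The differences were -1.40 for PSAT1 (SE 0.239, adjusted p = 0.000277), -1.09 for MTHFD2 (SE 0.163, adjusted p = 4.83e-05), -0.97 for SHMT2 (SE 0.139, adjusted p = 2.90e-05), -0.87 for MTHFD1L (SE 0.154, adjusted p = 0.000363) and -0.85 for PSPH (SE 0.181, adjusted p = 0.00197). These 5 enzymes of serine synthesis and the mitochondrial arm kept that call in each fit run. Without PHGDH, at 0 to 8 counts per library, the count is 7 of 9. The others were MTHFD1 at -0.34 (adjusted p = 0.0226), SHMT1 at -0.19 (adjusted p = 0.0442) and PHGDH (adjusted p = 0.0177, or 0.0203 with no filter). None of these last 3 was called without replicate 2 of the combination, the library with the lowest MTHFD1 (-0.22 at an adjusted p of 0.156 for MTHFD1, -0.15 at 0.197 for SHMT1, and 0.0708 for PHGDH). Without replicate 4 of the combination MTHFD1 had an adjusted p of 0.0536 and SHMT1 one of 0.115, and without replicate 3 PHGDH had 0.0521 and SHMT1 0.0756. SHMT1 was lost without any 1 of PI103 replicates 1 to 3 or PD0325901 replicates 1 to 3 as well (adjusted p = 0.0515 to 0.0804). With library size alone SHMT1 had an adjusted p of 0.174 and MTHFD1 one of 0.0505, and SHMT1 was also lost with upper-quartile factors (0.137), no filter (0.0879) and those groups only (0.0744).

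PI103 with oxozeaenol was below the mean of its agents for PSPH alone (1.1% of all tested genes were lower and 2.88% higher), at -0.65 (SE 0.179, adjusted p = 0.0401). That call was lost without replicate 1, 3 or 4 of the combination (adjusted p = 0.231, 0.163 and 0.106), replicate 2, 3 or 4 of PI103 (0.0629, 0.0598 and 0.0649) or replicate 2 or 3 of oxozeaenol (0.0763 and 0.0591), and with no filter on low counts (0.0904). Replicate 2 of this combination moved the others: without it PSAT1 was at -0.78 (adjusted p = 0.0219) in place of -0.32 (adjusted p = 0.526), and MTHFD2 at -0.50 (adjusted p = 0.0493) in place of -0.26 (adjusted p = 0.433). The combinations differed from each other for 6 of the 10 genes, all lower with PD0325901 than with oxozeaenol as the partner of PI103 (15.6% of all tested genes were lower and 14.3% higher). They were PSAT1 (-1.25, adjusted p = 0.000979, or -0.80 without replicate 2 of the combination with oxozeaenol), MTHFD2 (-0.96), MTHFD1L (-0.80), SHMT2 (-0.72), MTHFD1 (-0.67) and SHMT1 (-0.38, adjusted p = 0.000575).

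**Figure D4:**
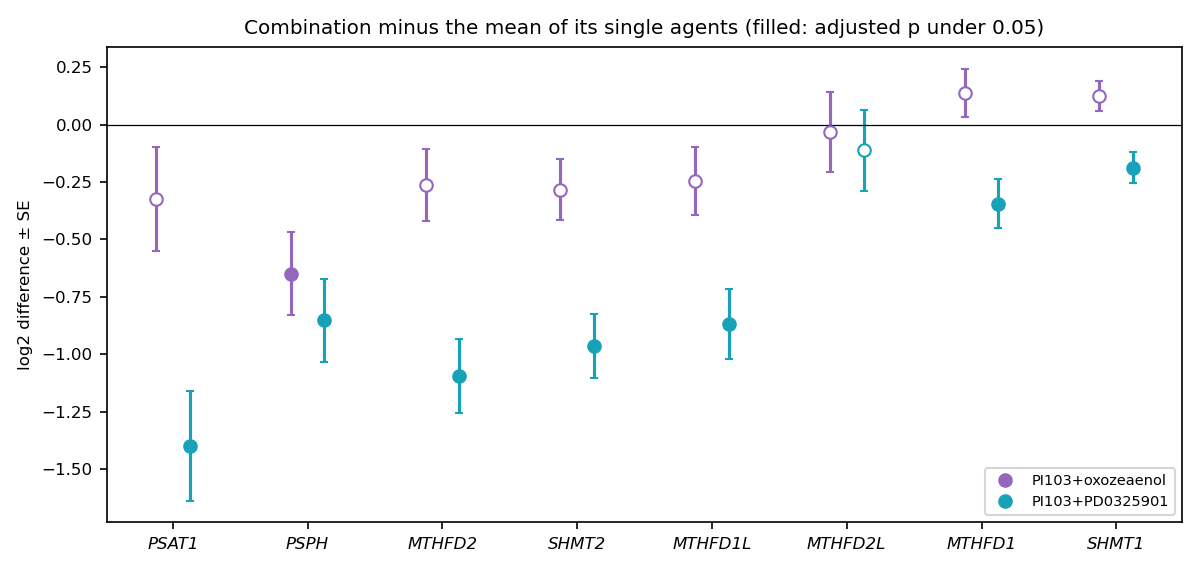
Difference of each combination from the mean of its single agents, on the log2 scale with its SE, for the 8 enzymes with at least 50 counts in each library; filled points have an adjusted p under 0.05. PI103 with PD0325901 lies between -0.85 and -1.40 for PSAT1, PSPH, MTHFD2, SHMT2 and MTHFD1L, and PI103 with oxozeaenol is filled for PSPH alone.

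The genes whose log2 CPM ran most like each enzyme over the 24 libraries, among 10039 others with a mean of at least 5 CPM, are a description with no test, since the libraries fall into 6 treatment groups and share their batches. PSAT1 ran most closely with MTHFD2 (Pearson r = 0.996), ASNS (asparagine synthetase, 0.992) and YARS (a tRNA synthetase, 0.992). MTHFD2 ran with PSAT1, YARS (0.994) and EIF2S2 (0.992), and PSPH with ASNS (0.987), PSAT1 (0.976) and the cystine transporter SLC7A11 (0.971). SHMT2 ran with the glutamine carrier SLC1A5 (0.991) and the tRNA synthetases MARS (0.990) and IARS (0.988). MTHFD1L ran with NOP2 (0.989), HK2 (0.986) and LSG1 (0.983), and MTHFD1 with PPP5C (0.981), NAP1L4 (0.965) and FBL (0.962). SHMT1 ran with KALRN (0.947), GALNT12 (0.925) and ACAD9 (0.917), and MTHFD2L with CCDC138 (0.891), MRPL18 and TOMM5 (0.886 each). For the genes at a few counts the highest values were lower, 0.908 with QRSL1, 0.907 with SUPV3L1 and 0.906 with SRP72 for PHGDH, and 0.667 with SLC35A3, 0.659 with ZNF100 and 0.647 with MAP3K8 for ALDH1L2.

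The neighbours of these enzymes changed in both directions. Of the 4 genes of the glycine cleavage system, which breaks glycine down in mitochondria, GLDC and AMT rose with all 5 treatments. GLDC, the decarboxylase, was at 2.98, 4.51, 4.17 and 4.61 CPM in control and at 41.2, 58.7, 47.8 and 59.2 CPM with PD0325901, a 12.7-fold rise (log2 fold change 3.67, adjusted p = 4.52e-12). Its log2 fold change was 0.56 with PI103 (adjusted p = 0.0366), 2.55 with oxozeaenol, and 2.00 and 3.04 in the combinations with oxozeaenol and PD0325901. The change with PI103 was not called without control replicate 1 or 3 (adjusted p = 0.119 and 0.0642), PI103 replicate 2 or 4 (0.0639 and 0.120) or the filter on low counts (0.0896). AMT, at 0.499 ± 0.188 CPM in control (SD, n = 4), rose by 1.26 to 2.45 on the log2 scale. With oxozeaenol AMT was at 0.766, 1.26, 0.795 and 3.14 CPM, and its rise of 1.59 was 0.93 (adjusted p = 0.0459) without replicate 4. DLD, shared with other dehydrogenases, fell with PI103 (-0.47, adjusted p = 2.40e-05). It averaged 183 CPM in control, and 142 and 146 CPM in the combinations with oxozeaenol and PD0325901. GCSH averaged 129 CPM with oxozeaenol and 87.7 CPM in control. Of the 4 genes, 1, 0, 0, 1 and 1 were lower and 2, 2, 3, 2 and 2 higher. The order is PI103, PD0325901, oxozeaenol, combination with oxozeaenol, combination with PD0325901. Over all tested genes 25.2% to 32.6% were lower and 25.7% to 32.2% higher.

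Several carriers of serine and glycine fell in the same treatments as the biosynthetic genes. Over all tested genes 25.2%, 29.9%, 26.1%, 27.9% and 32.6% were lower and 26.2%, 28.7%, 25.7%, 27.7% and 32.2% higher in the 5 treatments, against which the counts of the lists are to be read. Of 9 tested genes of serine and glycine transport and serine breakdown, 4, 5, 4, 4 and 5 were lower and 1, 3, 2, 1 and 1 higher, in the order PI103, PD0325901, oxozeaenol, combination with oxozeaenol, combination with PD0325901. SLC1A4, SLC1A5, SLC6A9 and SLC38A2 were lower in all 5. The glycine carrier SLC6A9 went from 67.9 ± 7.52 to 4.16 ± 0.928 CPM (SD, n = 4 each) with PI103 (log2 fold change -4.03, adjusted p = 6.97e-12). SFXN3, of the family of mitochondrial serine carriers, rose most with PI103 and PD0325901 (0.93, adjusted p = 2.17e-07). Of 8 tested genes of the methionine cycle and transsulfuration, 3, 4, 3, 3 and 3 were lower and 1, 1, 2, 1 and 0 higher, in the same order of treatments. CTH, which makes cysteine from cystathionine, went from 123 ± 13.9 to 2.92 ± 0.483 CPM (SD, n = 4 each) with PI103 (log2 fold change -5.40, adjusted p = 1.76e-10), and MAT2A rose by 0.43 with PI103 and oxozeaenol (adjusted p = 0.00401, groups overlapping). Of 15 tested genes of folate metabolism and transport, 4, 4, 3, 4 and 7 were lower and 4, 2, 4, 5 and 4 higher, shares of 26.7%, 26.7%, 20%, 26.7% and 46.7% lower that apart from the last lie near or under those of all tested genes. GART, a purine synthesis enzyme that uses a folate one-carbon unit, was lowest with PI103 and PD0325901 (-1.41, adjusted p = 6.74e-12), and the folate receptor FOLR1 rose most there (2.28, adjusted p = 1.72e-13).

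All 12 genes of the list of transcription factors and the amino acid response were lower with PI103 and with both combinations, and 11 with PD0325901 and with oxozeaenol, NUPR1 being the one not called. ATF4 fell by 1.19 on the log2 scale with PI103, by 0.69 with PD0325901, by 0.46 with oxozeaenol, and in the combinations by 0.99 (oxozeaenol) and 1.46 (PD0325901). In the PD0325901 group ATF4 was 380 CPM in replicate 2, the library lowest for 7 of the 8 enzymes, and 498 to 572 CPM in the others. MYC was lowest in that library too, at 67.5 CPM against 89.9 to 101.8 CPM. SLC6A9 and CTH were also lowest there, and GLDC and AMT were not. In replicate 2 of PI103 with oxozeaenol ATF4 was the highest of its group, at 451 CPM against 366 to 391 CPM. MYC did not stand apart in that library, at 154 CPM in a group that ran from 145 to 166 CPM. MYC fell by 1.03, 1.71, 1.29, 0.91 and 1.39 in the same order. TRIB3, the gene of that list with the largest fall, had 31.1 ± 8.50 CPM in control (SD, n = 4) and 1 to 3 counts per library with PI103 and PD0325901. Of 6 markers of cell division, 0, 3, 0, 0 and 2 were lower and 2, 0, 2, 3 and 0 higher, in the same order of treatments. As shares, 0%, 50%, 0%, 0% and 33.3% were lower and 33.3%, 0%, 33.3%, 50% and 0% higher. Over all tested genes 25.2% to 32.6% were lower and 25.7% to 32.2% higher. With so few genes called, no split by agent is read from this list. CDK1 was higher with PI103 and oxozeaenol (0.85, adjusted p = 0.00107), and CCNB1 lower with PI103 and PD0325901 (-0.70, adjusted p = 0.0114). When only the groups compared were fitted, CCNB1 was also called higher with PI103 (0.26, adjusted p = 0.00505) and lower with PI103 and oxozeaenol (-0.23, adjusted p = 0.0307). DUSP6, PHLDA1 and IER3, read out as targets of MEK signalling, were lower in all 5 treatments, DUSP6 by 5.18 on the log2 scale with PD0325901. The part of these genes in the levels of the enzymes was not tested.

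**Figure D5:**
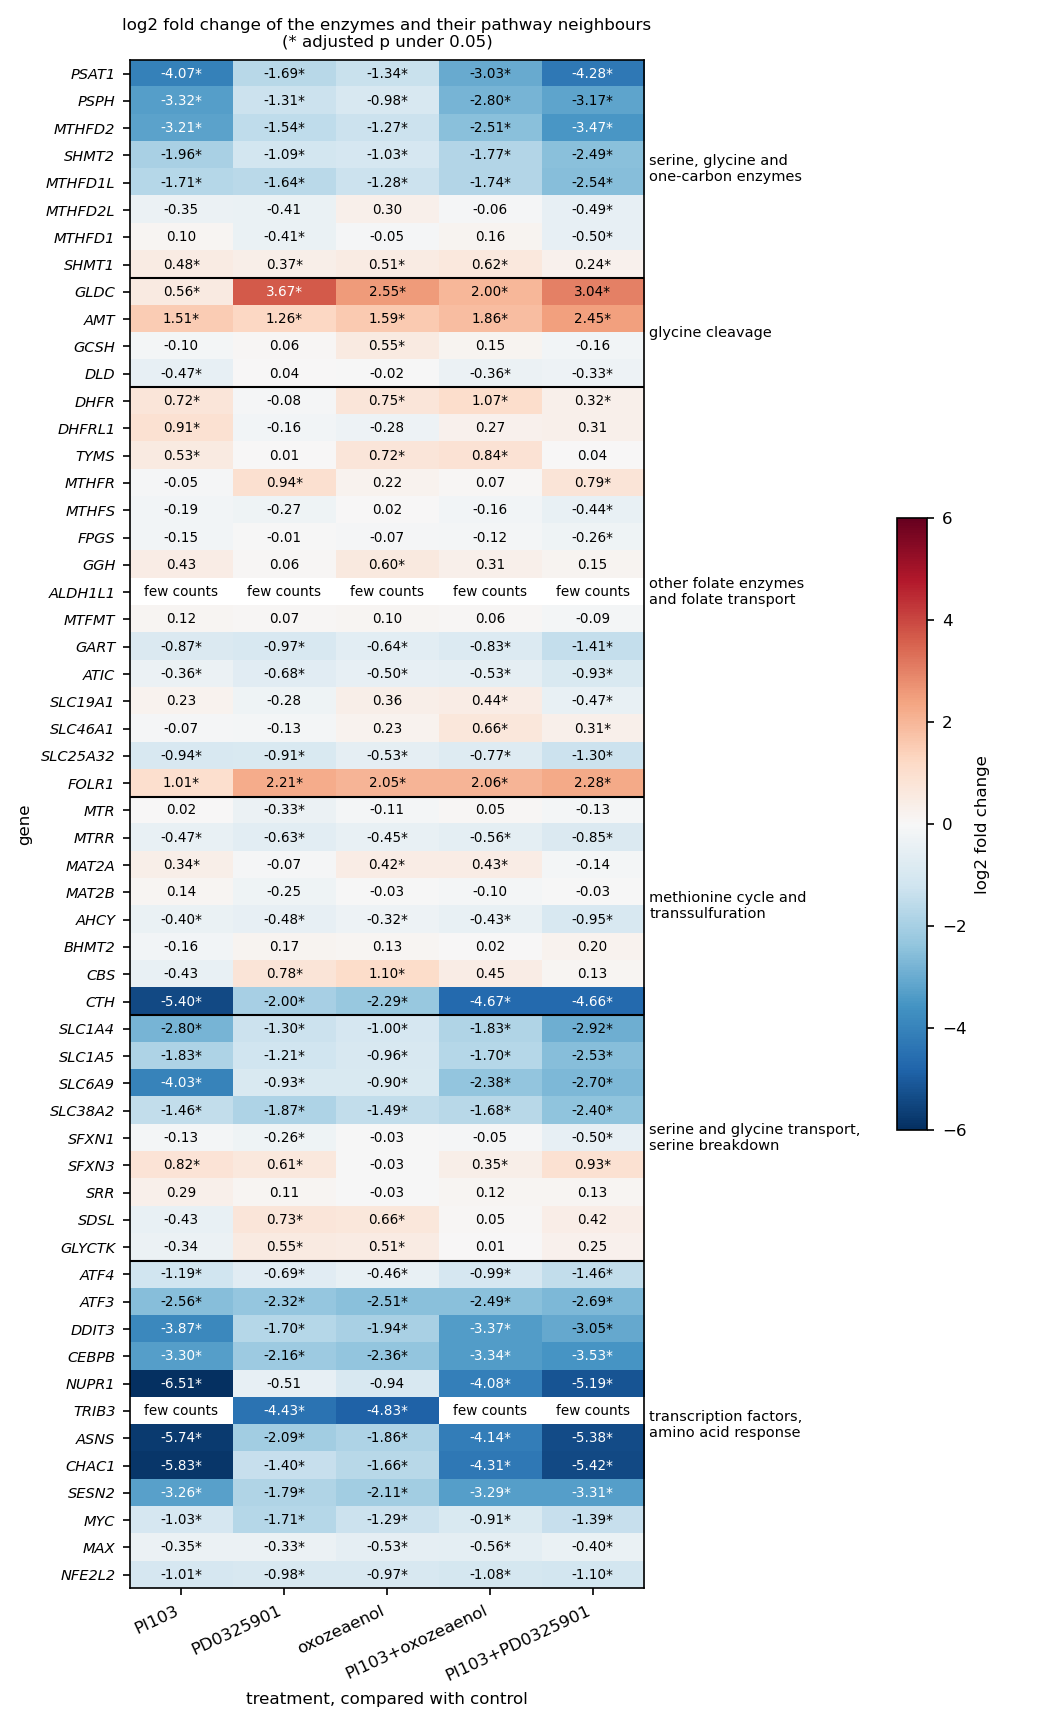
Log2 fold change against control of the enzymes and of the tested genes of 5 neighbouring lists in each treatment, with an asterisk at an adjusted p under 0.05 and "few counts" where a treated library held 3 counts or fewer. GLDC, AMT and FOLR1 are higher in all 5 columns, and CTH, SLC6A9 and ASNS are lower in all 5.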

How the data were processed

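RNA sequencing of 24 AGS libraries was analysed, 4 in each of 6 groups taken from the sample titles. The labels give a stranded mRNA kit and 0.8 µg of total RNA per library. The authors deposited whole-number read counts per gene symbol, on the build GRCh38 per the submitters' processing notes, and the aligner, counter, annotation and use of strand are not given in the sources used here. The tallies of reads assigned to no gene, 10.7% to 16.5% of each library's reads, were left out.

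Counts were filtered with filterByExpr (13947 of 23368 genes, with 99.989% of counts), scaled with TMM factors, and entered a robust quasi-likelihood model with 1 coefficient per group (edgeR 4.0.16, R 4.3.3). P-values were 2-sided with a Benjamini-Hochberg correction within each of 17 contrasts, 2 of them only to order levels, and calls are at an adjusted p under 0.05. The SE of a log2 fold change is its size divided by the square root of F. The scripts were tested on simulated data. Ratios of enzymes used a prior count of 0.5 and exact permutation tests. CPM per kb used GENCODE 29 exon lengths, and coordinates are from GENCODE 29 on GRCh38 and from RefSeq tables on GRCh38.p14.

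The members and lists were chosen with earlier results of these data known. All 10 members are named, with the 3 genes most correlated with each, and from each list the largest rise and fall among called genes with a mean of at least 5 CPM. AMT, ATF4, ASNS, NUPR1, PHLDA1, IER3 and the genes called in all 5 treatments were named besides, after their values were seen. Alternatives were other scaling factors, DESeq2 1.42.0, no filter, the groups compared only, the batch number as a block, and leaving out each library. Those for genes of the lists were added after seeing the data. Batch numbers, which the labels give, pair libraries: deviations from group means had a mean correlation of 0.12 over 60 same-numbered pairs (47 positive, 28 over 0.1) and of -0.04 over 180 others.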

Additional observations from a re-analysis of the deposited data

Results flagged for a closer look

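In groups of 4 libraries, a value was marked when its gap to the nearest other value was a large share of the range of the group (Dixon's test). This marked 4 of 78 groups of values, and chance marks about 1 in 20. PSAT1 was at 412 CPM in replicate 2 of PI103 with oxozeaenol, where the other 3 libraries lay between 161 and 177 CPM. MTHFD2 was at 278 CPM in the same library, against 158 to 168 CPM. PSPH was at 71.5 CPM in replicate 2 of PD0325901, against 123 to 127 CPM. PHGDH was at 0.0250 CPM (2 counts) in replicate 1 of PI103 with PD0325901, where the other 3 libraries had 0 counts.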

How the results depend on the processing

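Of 747 alternative fits of the 10 genes against control, 727 kept the direction and the call, 12 gained or lost a call and 8 changed the sign of a value that was not called. Those 8 were MTHFD1 with oxozeaenol (0.00954 with upper-quartile factors and 0.0455 without oxozeaenol replicate 4), ALDH1L2 with PI103 and PD0325901 (-0.115 without control replicate 4 and -0.0605 without replicate 4 of the combination) and MTHFD2L with PI103 and oxozeaenol (0.00609 with library size alone, 0.0181 with upper-quartile factors, 0.0330 without replicate 1 of the combination and 0.0282 without control replicate 4). Leaving out 1 library gave values from -0.146 to 0.0455 for the first, -0.115 to 0.321 for the second and -0.200 to 0.0330 for the third. The cause was not tested. Library size alone and upper-quartile factors moved the median of all genes for PI103 with PD0325901 against control to 0.13 and 0.15. Asking for an absolute log2 fold change of at least 1 left 0 genes higher against control in each of the 5 treatments. Of the genes called lower, it removed MTHFD1 with PD0325901 (-0.41) and PSPH with oxozeaenol (-0.98). With PI103 and PD0325901 it removed MTHFD1 (-0.50) and MTHFD2L (-0.49). Fitting only the groups compared left 1 gene higher in PI103 with oxozeaenol against PI103, and 1 in oxozeaenol against PD0325901. In the fit of oxozeaenol against PD0325901 MTHFD1 lost its call (adjusted p = 0.0695). ALDH1L2 did not pass the filter on low counts there and so was not tested. With no filter 0 genes were lower in PI103 with oxozeaenol against the mean of its agents.

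Leaving out 1 library gave 0 to 1 gene higher and 7 to 8 lower in PI103 with PD0325901 against control, 0 to 1 lower and 1 to 3 higher in PI103 with oxozeaenol against PI103, 3 to 5 lower in PI103 with PD0325901 against PI103, and 0 to 4 higher in oxozeaenol against PD0325901. It gave 7 to 8 lower in PD0325901 against control, 0 to 3 lower in PI103 with oxozeaenol against the mean of its agents and 5 to 8 lower in PI103 with PD0325901 against its mean. Of genes named from the lists, MAT2A with PI103 (without PI103 replicate 1 or control replicate 2 or 4), SFXN3 with PI103 and oxozeaenol (without control replicate 4) and AHCY with oxozeaenol (without oxozeaenol replicate 4) lost their call. The replicate block changed no other call of the 10 genes than the 3 given with the results, those of PSPH, MTHFD1L and MTHFD2L, and left the count of members lower with PI103 at 6. PHGDH and ALDH1L2, at a few counts per library, set the limit of what depth allows here.

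Counts over all tested genes moved by more than 1.5 times in these fits. Against PI103, 1244 genes were lower in PI103 with oxozeaenol, and 2141 when only those groups were fitted. Against oxozeaenol that combination had 1015 lower (1570 with the replicate block, 508, 615 and 646 without its replicate 1, oxozeaenol replicate 3 and its replicate 3) and 1059 higher (542, 697 and 701). PI103 with PD0325901 against PD0325901 had 1397 lower (601 with those groups only, 913 without its replicate 1, 798 without PD0325901 replicate 3) and 1124 higher (621, 618 and 587). Oxozeaenol against PD0325901 had 2102 lower (1300 with those groups only) and 1874 higher (1048, and 955 without PD0325901 replicate 2). The combination with PD0325901 against that with oxozeaenol had 1994 higher (1232 without its replicate 2). PI103 with oxozeaenol against its mean had 153 lower (244 in DESeq2, 312 with the block, 264 with those groups only, 58, 64 and 74 without its replicate 1, 3 and 4, 237 without oxozeaenol replicate 4) and 402 higher (685 with the block, 623 with those groups only, 174, 194 and 206). PI103 with PD0325901 against its mean had 1553 lower (989 with library size alone, 1022 with upper-quartile factors, 643 without its replicate 2) and 1512 higher (823 without its replicate 2).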
